A study of Mus musculus with 8 samples.

Results

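Collagen genes encode the chains of a large family of matrix proteins. They were read here in the cortex of APP/PS1 mice, a transgenic line that forms amyloid plaques, with and without bexarotene. Every gene symbol of the form Col, a type number, the letter a and a chain number was taken, and each gene was represented by its transcript row with the highest mean count over all libraries. This gave 43 of the 22869 gene symbols in the table: 11 fibrillar, 8 basement membrane and 24 other collagens. One further collagen stands in the table only under an older symbol, Emid2 (now Col26a1), and is not counted among the 43.

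Cortex RNA was sequenced in 4 libraries of bexarotene-treated mice and 4 of vehicle mice, which received 0.2 mg/kg glycerol. Bexarotene activates the retinoid X receptors, nuclear receptors that pair with others on DNA. All samples carried the APP/PS1 genotype on the C57BL/6 strain, so both groups carry the transgenes. Bexarotene dose, treatment length, animal age, sex and the promoter of the transgenes are unstated in the labels, as is whether a library holds RNA of 1 animal or of several. P-values therefore measure the spread between these libraries, which may not be the spread between animals.

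Collagen chains wind around each other through repeats that place glycine at regular positions. Fibrillar collagens such as types I, III and V form banded fibres, which in brain lie mainly in the meninges and around larger vessels. Type IV collagen forms the sheet-like network of the vascular basement membrane, made by endothelial cells and pericytes. Other members sit on fibril surfaces (the FACIT collagens), form beaded filaments (type VI) or span the cell membrane. Of the membrane-spanning collagens, Col25a1 is made by neurons, and its shed part is known from human Alzheimer tissue as a component of amyloid plaques.

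Total counts over all rows lay between 60106192 and 76542067 in bexarotene libraries and between 42413825 and 60955403 in vehicle libraries. On the first principal component of all genes (36.5% of the variance), replicates 1 and 3 of both groups lay apart from replicates 2 and 4. Xist, which marks RNA from females, ranged from 84.7 to 218 CPM (counts relative to the scaled library size) in bexarotene libraries and from 0.62 to 307 CPM in vehicle libraries, where replicates 2 and 4 were near 0. Y-linked genes summed to 17.1, 88.5, 55.8 and 9.81 CPM in bexarotene replicates 1 to 4, against 0.282, 134, 0.251 and 141 CPM in vehicle replicates 1 to 4. Each bexarotene library thus held RNA of both kinds, and each vehicle library mainly of 1 kind. In the vehicle group, replicates 1 and 3 held the female kind and replicates 2 and 4 the male kind. Those sets and sex cannot be told apart there. All comparisons of bexarotene with vehicle thus set libraries of both kinds against libraries of mainly 1 kind. This holds over all 8 libraries and within replicates 1 and 3, or within 2 and 4. The summed markers of cortical projection neurons, among them Slc17a7, stood at 3988 to 5719 CPM in bexarotene libraries and 3947 to 5552 CPM in vehicle libraries. Striatum markers were also present, at 271 to 1235 CPM in bexarotene libraries and 212 to 646 CPM in vehicle libraries.

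No collagen gene differed between bexarotene and vehicle past the test. All 43 passed the low-count filter, and by edgeR's quasi-likelihood test, adjusted over the whole table, 0 were higher and 0 lower at an adjusted p under 0.05, against 0.00622% of the 16069 genes tested. The smallest adjusted p of a collagen was 0.484, for Col9a3, and the next 0.605, for Col24a1. At an unadjusted p under 0.05, 1 collagen, Col9a3, was higher and 0 were lower, against 8.77% of all genes in either direction. DESeq2 and edgeR's exact test also called 0 collagens, where they called 0.647% and 0.205% of all genes. In each of the 43 genes the bexarotene and vehicle libraries overlapped, while 5.77% of all genes tested showed no overlap.

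The log2 fold change was positive for 30 of the 43 collagens, with a median of 0.09, where 50.2% of all genes tested had a positive value and the median was 0.00. By class, it was positive for 8 of 11 fibrillar collagens (median 0.17), 5 of 8 basement membrane collagens (median 0.09) and 17 of 24 others (median 0.07). These counts moved with single libraries: 23 collagens had a positive value without bexarotene replicate 1 (fibrillar median 0.02) and 32 without bexarotene replicate 2 (fibrillar median 0.32). The basement membrane median was -0.04 over its members with a mean of at least 1 CPM. Collagen transcripts are long, with a median of 5668.5 nt against 2897 nt for all genes tested. Of genes of 4000 to 8000 nt, 31.7% had a positive log2 fold change, and their median was -0.07. With a correction for length, 34 collagens were positive and their median was 0.16, still with 0 past the test.

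**Figure D1:**
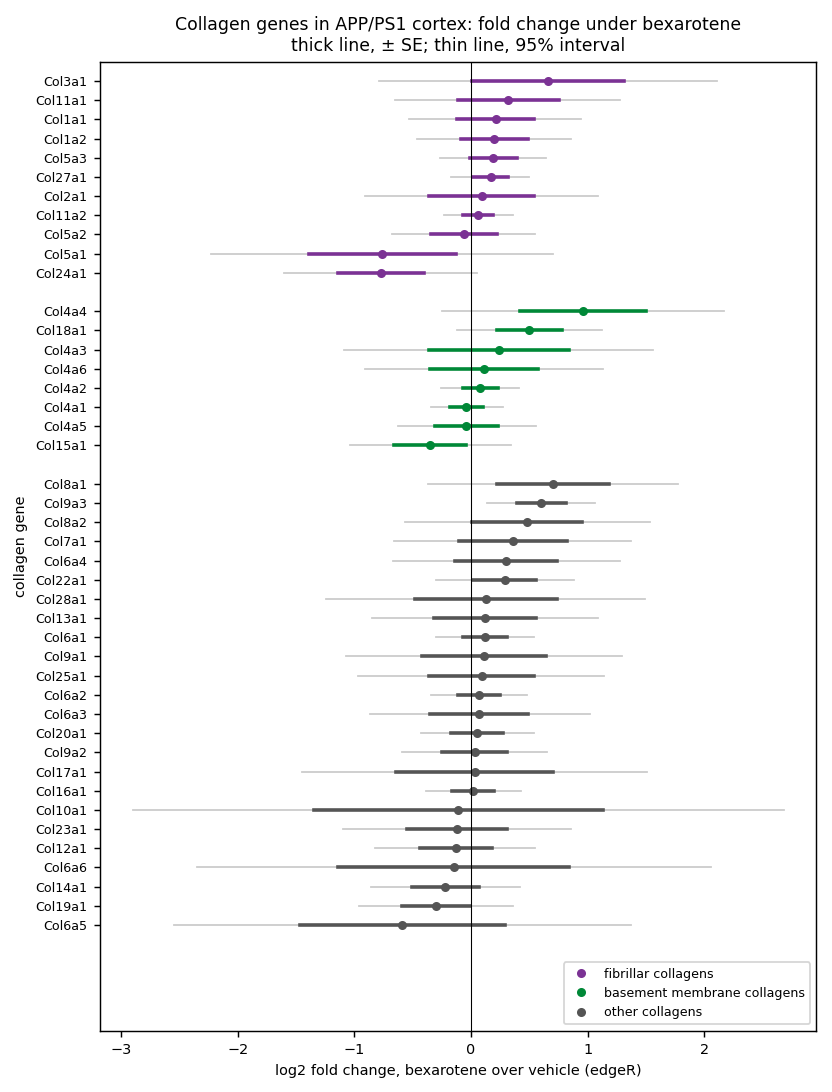
Log2 fold change of each collagen gene, bexarotene over vehicle, grouped as fibrillar, basement membrane and other collagens; points are edgeR estimates from 4 libraries per group, thick lines ± SE and thin lines 95% intervals. Values run from -0.77 for Col24a1 to 0.96 for Col4a4, and Col9a3 (0.14 to 1.06) is the 1 gene whose unadjusted interval lies off 0.

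For 8 collagens the 95% interval of the difference stayed within 1.5-fold in either direction: Col4a1, Col4a2, Col6a1, Col6a2, Col11a2, Col16a1, Col20a1 and Col27a1. For 15 others the interval spanned more than 2 log2 units, so changes of sizeable extent could not be told from none. Not all of these left equal room in both directions: Col4a4 ran from -0.25 to 2.17 and Col8a1 from -0.37 to 1.77. At the median, collagens varied more between libraries of 1 group than all genes tested, which were not matched to them in level. The median SD of log2 CPM was 0.48 in bexarotene and 0.52 in vehicle libraries for collagens, against 0.18 and 0.23 for all genes tested. Of the collagens, 23 averaged 1 to 10 CPM and 9 less than 1 CPM, and the part of low counts in this spread was not tested. Because tissue was sequenced in bulk, fewer cells of a type and less RNA per cell cannot be told apart in any of these values.

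Among fibrillar collagens, the chains of type I, the main fibre of meninges and vessel walls, were highest in vehicle replicate 1 and bexarotene replicates 1 and 3 or 4. Col1a2, the fibrillar gene with the highest level per kilobase (2.65 CPM per kb), had 19.7, 10.5, 15.9 and 14.6 CPM in bexarotene replicates 1 to 4, against 21.6, 9.63, 9.23 and 12.4 CPM in vehicle replicates 1 to 4. Its partner chain Col1a1 had 12.6, 6.25, 8.86 and 9.17 CPM in bexarotene libraries, against 13.9, 6.39, 5.14 and 6.55 CPM in vehicle libraries. Col3a1, which forms mixed fibres with type I, had 3.81, 1.01, 2.45 and 0.934 CPM in bexarotene libraries, against 3.08, 0.930, 0.574 and 0.653 CPM in vehicle libraries. Vehicle replicate 1 and bexarotene replicate 1 held the highest levels of each, and the groups overlapped.

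The log2 fold change was 0.20 ± 0.29 (SE) for Col1a2, 0.21 ± 0.33 for Col1a1 and 0.66 ± 0.65 for Col3a1, with adjusted p-values of 0.905, 0.912 and 0.8292 by edgeR. Without vehicle replicate 1 these became 0.54, 0.61 and 1.51, with an adjusted p of 0.619 for each. Markers of meningeal and perivascular fibroblasts, the cells that make these chains, had their 3 highest sums in bexarotene replicates 1 and 3 and vehicle replicate 1, the libraries with the most Col1a2. The summed list stood at 155, 100, 133 and 105 CPM in bexarotene replicates 1 to 4 and 141, 102, 107 and 96.1 CPM in vehicle replicates 1 to 4. Pdgfra, also a marker of oligodendrocyte precursors, made up 47.1 to 60.6 CPM of each sum. All 10 of its markers were measured, 9 had a positive log2 fold change (median 0.21) and 0 passed the test. Their part in the collagen values was not tested.

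Col5a1 and Col24a1 carried the most negative fold changes, and 1 vehicle library was high in both. Col5a1, whose product controls the width of type I fibres, had 10.9, 22.7, 10.5 and 19.5 CPM in bexarotene replicates 1 to 4, against 10.1, 65.7, 18.9 and 13.3 CPM in vehicle replicates 1 to 4. Vehicle replicate 2 alone stood above every bexarotene library. Its log2 fold change was -0.76 ± 0.63 (SE), adjusted p = 0.791 by edgeR, and 0.18 without that library. Col24a1, a fibrillar chain with a short helix, had 1.55, 1.67, 1.58 and 3.14 CPM in bexarotene libraries, against 2.40, 5.96, 2.22 and 2.95 CPM in vehicle libraries. Bexarotene replicates 1 to 3 lay below every vehicle library, but replicate 4 lay above all vehicle libraries except replicate 2. Its log2 fold change was -0.77 ± 0.37 (SE), adjusted p = 0.605 by edgeR, and two-sided exact permutation of the 8 libraries gave 0.114, where the smallest possible is 0.0286. Without vehicle replicate 2 it was -0.34.

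Col27a1, a fibrillar chain best known from cartilage, was among the steadiest collagens. It had 7.23, 5.74, 5.49 and 6.28 CPM in bexarotene libraries, against 5.36, 6.55, 5.18 and 4.96 CPM in vehicle libraries. Its log2 fold change was 0.17 ± 0.15 (SE), adjusted p = 0.808 by edgeR. Col11a2, also a cartilage collagen, was next to Col1a2 in level per kilobase among fibrillar chains (2.61 CPM per kb), with 16.1 ± 2.74 CPM in bexarotene and 15.4 ± 1.10 CPM in vehicle libraries (SD, n = 4). The 5 fibrillar genes not given a fold change above had values between -0.06 (Col5a2) and 0.32 (Col11a1), the smallest unadjusted p in edgeR being 0.381.

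**Figure D2:**
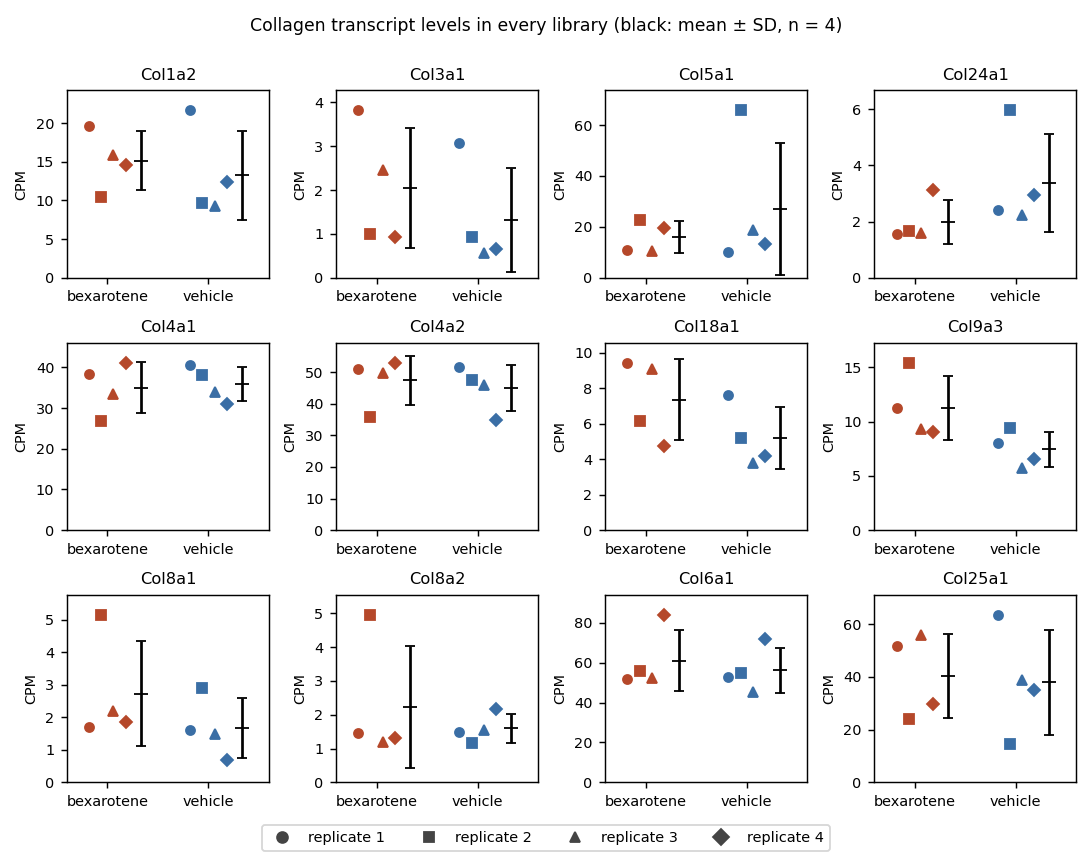
CPM of 12 collagen genes in every library, bexarotene left and vehicle right, with marker shapes for replicate numbers and black bars for mean ± SD (n = 4). The groups overlap in every panel, vehicle replicate 2 stands apart in Col5a1 (65.7 CPM), and bexarotene replicate 2 in Col8a1 (5.13 CPM) and Col8a2 (4.94 CPM).

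The chief chains of the vascular basement membrane, Col4a1 and Col4a2, were nearly level between groups. Col4a2, the most abundant of the class per kilobase (7.17 CPM per kb), had 51.1, 35.9, 49.9 and 53.0 CPM in bexarotene replicates 1 to 4, against 51.7, 47.7, 45.9 and 35.0 CPM in vehicle replicates 1 to 4. Col4a1 had 38.5, 26.9, 33.5 and 41.1 CPM in bexarotene libraries, against 40.5, 38.1, 33.9 and 31.1 CPM in vehicle libraries. The highest library exceeded the lowest by 1.52-fold for Col4a2 and 1.53-fold for Col4a1, among the smallest spreads of the family. The log2 fold change was 0.08 ± 0.15 (SE, interval -0.26 to 0.41) for Col4a2 and -0.04 ± 0.14 (-0.34 to 0.27) for Col4a1, with adjusted p-values of 0.933 and 0.972 by edgeR. The sign of both changed under some alternatives, among them the correction for length for Col4a1.

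Col4a1 and Col4a2 are transcribed head to head, on opposite strands, from neighbouring start sites. Their promoter windows, 250 bases before to 50 bases after the annotated start, are shown because they share bases. Whether that bears on the levels of the chains was not tested. The windows come from RefSeq on GRCm38.p6, not on the build of the count table. The Col4a1 window is chr8:11312777-11313076 on the minus strand and the Col4a2 window is chr8:11312555-11312854 on the plus strand. Each is written 5′ to 3′ on the strand of its gene, and capitals mark the 78 bases that both windows hold, as reverse complements of each other.
Col4a1: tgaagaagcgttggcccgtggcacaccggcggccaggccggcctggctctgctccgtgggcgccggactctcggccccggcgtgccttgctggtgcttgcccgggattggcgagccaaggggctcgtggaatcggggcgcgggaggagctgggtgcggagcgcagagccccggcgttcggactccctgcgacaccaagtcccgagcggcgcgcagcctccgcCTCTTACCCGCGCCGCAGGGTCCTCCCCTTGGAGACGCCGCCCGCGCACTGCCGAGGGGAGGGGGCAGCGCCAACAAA
Col4a2: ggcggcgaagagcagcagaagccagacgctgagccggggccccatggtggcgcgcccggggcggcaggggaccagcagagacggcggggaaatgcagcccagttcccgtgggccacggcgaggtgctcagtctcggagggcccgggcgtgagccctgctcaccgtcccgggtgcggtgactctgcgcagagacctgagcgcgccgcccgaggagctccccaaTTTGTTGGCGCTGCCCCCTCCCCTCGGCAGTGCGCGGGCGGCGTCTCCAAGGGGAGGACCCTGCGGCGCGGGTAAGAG

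Per kilobase of transcript, the ratio of Col4a1 to Col4a2 counts was 0.719 ± 0.0444 under bexarotene and 0.782 ± 0.0617 under vehicle (SD, n = 4). Over all 8 libraries it lay between 0.654 and 0.867. A similarly narrow range held for Col1a1 over Col1a2, at 0.547 ± 0.0337 under bexarotene and 0.540 ± 0.0596 under vehicle (SD, n = 4). These genes lie on different chromosomes. Wider ranges were seen for other pairs. Col5a1 over Col5a2 ran from 2.15 to 9.60 in bexarotene libraries and from 2.06 to 24.6 in vehicle libraries, and Col1a2 over Col3a1 from 5.37 to 16.3 and from 7.31 to 19.8. Over all 8 libraries the highest ratio exceeded the lowest by 4.196-fold for Col4a3 over Col4a4, 3.71-fold for Col9a3 over Col9a2, 4.82-fold for Col9a1 over Col9a2 and 3.92-fold for Col6a3 over Col6a1, pairs whose chains belong to 1 collagen type. For Col6a1 over Col6a2 it was 1.80-fold. Col4a3, Col4a4 and Col9a1 were counted at most 72, 71 and 29 times in any library, so counting error can widen their ratios.

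**Figure D3:**
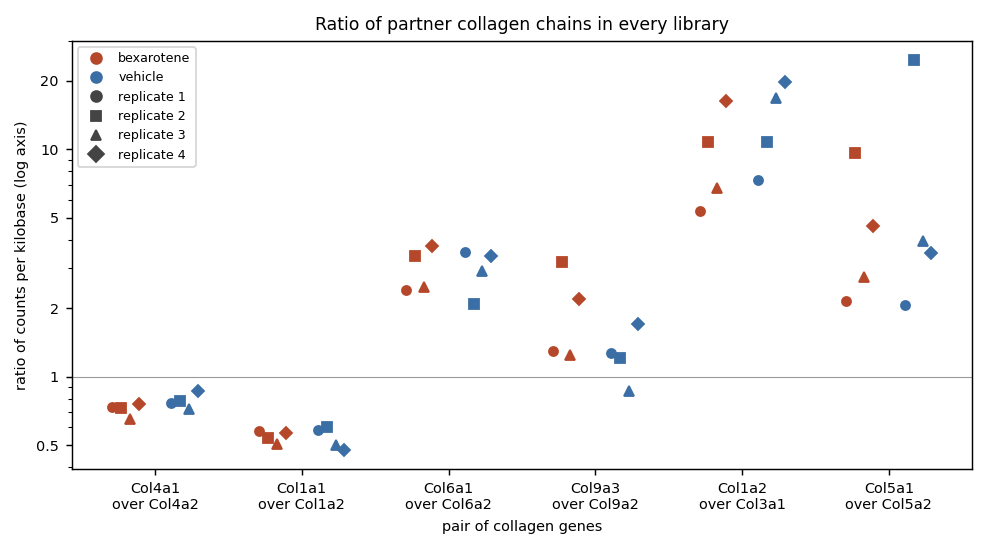
Ratio of counts per kilobase of transcript for 6 pairs of collagen genes in every library (log axis), with bexarotene on the left of each pair, vehicle on the right and marker shapes for replicate numbers. Col4a1 over Col4a2 (0.654 to 0.867) and Col1a1 over Col1a2 (0.476 to 0.599) are narrow in both groups, and Col5a1 over Col5a2 reaches 24.6 in vehicle replicate 2.

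The Col1a2 promoter is shown because it holds a motif well known in collagen promoters. Its window is chr6:4505368-4505667 on the plus strand of GRCm38.p6, from RefSeq, with capitals for the 2 matches to the CCAAT box, written CCAAT or, on the other strand, ATTGG.
Col1a2: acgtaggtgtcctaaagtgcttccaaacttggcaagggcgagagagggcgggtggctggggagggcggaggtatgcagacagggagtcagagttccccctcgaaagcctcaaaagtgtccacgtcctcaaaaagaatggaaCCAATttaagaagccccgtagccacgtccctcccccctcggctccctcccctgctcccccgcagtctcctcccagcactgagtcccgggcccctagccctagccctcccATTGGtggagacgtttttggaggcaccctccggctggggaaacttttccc

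Of the 43 collagens, 35 had at least 1 promoter window in the RefSeq table, 38 windows in all. The CCAAT box was found in 34.2% of these windows and in 37.4% of all 32851 windows. The GC box, GGGCGG or CCGCCC, was found in 60.5% of collagen windows and 35.7% of all windows. The 6 letters that retinoid X receptors and their partners recognise, AGGTCA or TGACCT, were found in 21.1% of collagen windows and 16.3% of all windows, the collagens being Col4a4, Col6a5, Col7a1, Col9a1, Col11a1, Col20a1, Col23a1 and Col24a1. Both strands were searched, the Col4a1 and Col4a2 windows share bases, and a match is a description of letters, not of binding.

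Outside these chains, Col18a1, the source of the vessel-acting fragment endostatin, had the smallest p of the basement membrane class. It had 9.43, 6.17, 9.10 and 4.72 CPM in bexarotene replicates 1 to 4, against 7.64, 5.19, 3.80 and 4.15 CPM in vehicle replicates 1 to 4. Replicates 1 and 3 of bexarotene exceeded every vehicle library and the other two did not. Bexarotene over vehicle gave a log2 fold change of 0.50 ± 0.28 (SE), adjusted p = 0.662 by edgeR, with 0.78 within replicates 1 and 3 and 0.21 within replicates 2 and 4. Col15a1, a related collagen that links basement membranes to fibrils, had 2.70, 3.25, 2.16 and 4.75 CPM in bexarotene libraries, against 3.15, 6.55, 3.39 and 3.35 CPM in vehicle libraries. Its log2 fold change was -0.35 ± 0.31 (SE), adjusted p = 0.802 by edgeR, and -0.03 without vehicle replicate 2, the 1 library well above the rest.

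The minor type IV chains were scarce. Col4a4, a chain of the kidney filter membrane, was counted 23, 71, 24 and 36 times in bexarotene replicates 1 to 4 and 8, 15, 11 and 27 times in vehicle replicates 1 to 4, or 0.367, 0.954, 0.350 and 0.480 CPM against 0.188, 0.258, 0.197 and 0.452 CPM. The log2 fold change of 0.96 ± 0.54 (SE) was the most positive of the family, at an adjusted p of 0.673 by edgeR. Leaving out bexarotene replicate 2 gave 0.54, and leaving out vehicle replicate 4 gave 1.32. Its head-to-head neighbour Col4a3 was counted 17, 72, 13 and 35 times in bexarotene libraries and 13, 34, 25 and 16 times in vehicle libraries. Both were highest in bexarotene replicate 2. The other 2 type IV chains, the X-linked Col4a5 and Col4a6, averaged 2.62 ± 0.285 and 0.814 ± 0.192 CPM under bexarotene, and 2.69 ± 0.928 and 0.754 ± 0.390 CPM under vehicle (SD, n = 4).

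Among the other collagens, Col9a3, a chain of the cartilage FACIT collagen IX, came nearest to a difference. It had 11.3, 15.4, 9.35 and 9.06 CPM in bexarotene replicates 1 to 4, against 8.06, 9.41, 5.74 and 6.5997 CPM in vehicle replicates 1 to 4. Vehicle replicate 2 lay above bexarotene replicates 3 and 4, and the other 3 vehicle libraries lay below all bexarotene libraries. This gave a log2 fold change of 0.60 ± 0.21 (SE), a 1.51-fold ratio, with an unadjusted p of 0.0161 and an adjusted p of 0.484 by edgeR. Two-sided exact permutation of the 8 libraries gave 0.0857. The difference was 0.59 within replicates 1 and 3, 0.58 within replicates 2 and 4, and between 0.41 and 0.74 when each library was left out. With the replicate number as a block the adjusted p was 0.265. Its partner chain Col9a2 averaged 6.47 ± 2.25 CPM in bexarotene and 6.33 ± 1.69 CPM in vehicle libraries (SD, n = 4).

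The short-chain collagens Col8a1 and Col8a2, which form a lattice under endothelia and in the cornea, were highest in 1 bexarotene library. Col8a1 had 1.71, 5.13, 2.19 and 1.87 CPM in bexarotene libraries, against 1.62, 2.91, 1.49 and 0.687 CPM in vehicle libraries. Col8a2 had 1.47, 4.94, 1.197 and 1.31 CPM in bexarotene libraries, against 1.505, 1.17, 1.54 and 2.18 CPM in vehicle libraries. Bexarotene replicate 2 was far above the other 7 libraries in Col8a2 and highest in Col8a1. Fold changes on the log2 scale were 0.70 ± 0.48 (SE) for Col8a1 and 0.48 ± 0.47 for Col8a2, with adjusted p-values of 0.738 and 0.8289 by edgeR. Without that library they were 0.20 and -0.27.

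Bexarotene replicate 2 held the highest level of 6 collagens (Col8a1, Col8a2, Col9a3, Col4a3, Col4a4 and Col20a1) and the lowest level of 9. Bexarotene replicate 1 held the highest of 10, vehicle replicate 1 of 9 and vehicle replicate 2 of 8, so its number of highest levels does not set it apart. This library was far above the rest in markers of choroid plexus, the epithelium that makes cerebrospinal fluid. The 10 markers summed to 94.5, 1479.8, 82.2 and 232 CPM in bexarotene replicates 1 to 4 and 23.2, 43.4, 29.6 and 42.0 CPM in vehicle replicates 1 to 4. Every bexarotene sum lay above every vehicle sum, so leaving out bexarotene replicate 2 does not make the groups alike in these markers. All 10 had a positive log2 fold change (median 1.37) and 0 passed the test. The list is led by Ttr, which liver also makes, at 1397 CPM in bexarotene replicate 2, and no marker of the list was at 0 in all libraries. Their part in the collagen values was not tested. For Col9a3, the log2 fold change was 0.41 without that library.

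**Figure D4:**
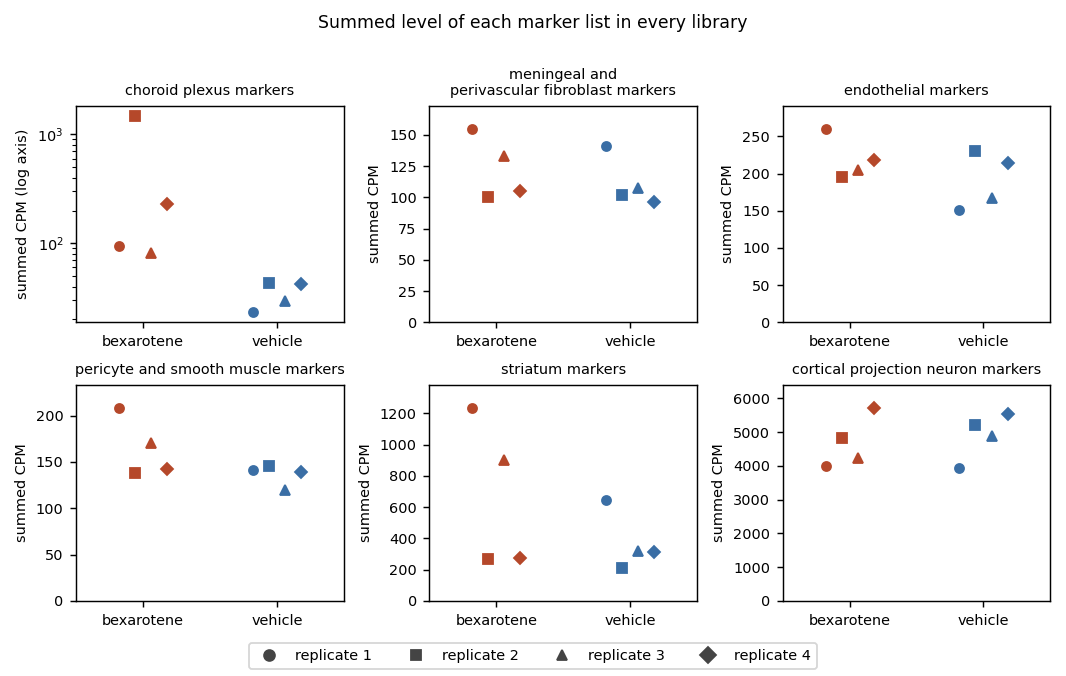
Summed CPM of 6 marker lists in every library, bexarotene left and vehicle right, with marker shapes for replicate numbers (log axis for choroid plexus). Choroid plexus markers reach 1479.8 CPM in bexarotene replicate 2, and fibroblast and striatum markers are highest in bexarotene replicates 1 and 3 and vehicle replicate 1.

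Col25a1 and Col6a1 were the most abundant other collagens. Col25a1 had 51.7, 24.0, 55.8 and 29.6 CPM in bexarotene replicates 1 to 4, against 63.4, 14.6, 38.9 and 34.9 CPM in vehicle replicates 1 to 4. It was higher in replicates 1 and 3 of both groups than in replicates 2 and 4, with no overlap between those sets. On the log2 scale the fold change was 0.09 ± 0.45 (SE), adjusted p = 0.982 by edgeR, with an interval of -0.97 to 1.14, and its sign changed when single libraries were left out. Its 3 transcript rows held nearly the same counts at lengths of 2624 nt for 2 of them, the row used included, and 6701 nt for the other, so its level per kilobase is uncertain. Col6a1, a beaded-filament chain, had 51.8, 56.0, 52.2 and 83.7 CPM in bexarotene libraries, against 52.8, 54.6, 45.1 and 71.7 CPM in vehicle libraries. Replicate 4 was the highest library in both groups. On the log2 scale its fold change was 0.12 ± 0.19 (SE), adjusted p = 0.910 by edgeR. Per kilobase, Col6a1 stood at 14.3 CPM per kb and its partners Col6a2 and Col6a3 at 4.86 and 0.187 CPM per kb.

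Of the FACIT collagens, which coat fibrils, Col22a1 and Col19a1 had the smallest p-values after Col9a3. Col22a1, known from tissue junctions such as that of muscle and tendon, had 3.19, 2.18, 2.70 and 2.95 CPM in bexarotene libraries, against 1.48, 1.79, 2.92 and 2.81 CPM in vehicle libraries. Col19a1, a collagen made by neurons including interneurons in mice, had 7.74, 14.1, 9.11 and 16.7 CPM in bexarotene libraries, against 8.65, 18.3, 16.9 and 14.8 CPM in vehicle libraries. The groups overlapped in both. The log2 fold change was 0.29 ± 0.27 (SE) for Col22a1 and -0.30 ± 0.29 for Col19a1, with adjusted p-values of 0.813 and 0.8286 by edgeR. Col22a1 was at 0.13 without vehicle replicate 1, and Col19a1 at -0.14 without bexarotene replicate 1 and -0.50 without bexarotene replicate 4. The remaining 17 of the other collagens had values between -0.59 (Col6a5) and 0.36 (Col7a1, the anchoring fibril of skin), with a smallest unadjusted p of 0.453.

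Some of these differed between replicates 1 and 3 and replicates 2 and 4 of both groups. So did many other genes tested, and the split is not particular to collagens. Col10a1, the collagen of hypertrophic cartilage, was counted 54, 4, 63 and 6 times in bexarotene replicates 1 to 4, against 46, 8, 48 and 0 times in vehicle replicates 1 to 4. The count of 0 allows up to 0.0503 CPM. Col6a5 was counted 45, 7, 75 and 21 times in bexarotene libraries, against 57, 35, 72 and 4 times in vehicle libraries. The membrane-spanning Col23a1 had 20.4, 13.1, 25.7 and 8.46 CPM in bexarotene libraries, against 27.1, 9.84, 24.1 and 12.7 CPM in vehicle libraries. These 3 and Col25a1 were higher in replicates 1 and 3 of both groups with no overlap, and Col6a1 was lower, that is 9.3% and 2.33% of collagens, where 6.47% and 7.22% of all genes tested were separated in these directions. The sets come from the principal component, so no test was made. In vehicle libraries they also part by Xist and Y-linked RNA, so set and sex cannot be told apart there. In bexarotene libraries both sets held RNA of both kinds. Y-linked genes summed to 17.1 and 55.8 CPM in replicates 1 and 3, and to 88.5 and 9.81 CPM in replicates 2 and 4. The part of sex was not tested. Of cell type lists, striatum markers were at 1235, 271, 904 and 272 CPM in bexarotene replicates 1 to 4 and 646, 212, 317 and 311 CPM in vehicle replicates 1 to 4. Vehicle replicates 3 and 4 were nearly equal in them, and their part was not tested.

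**Figure D5:**
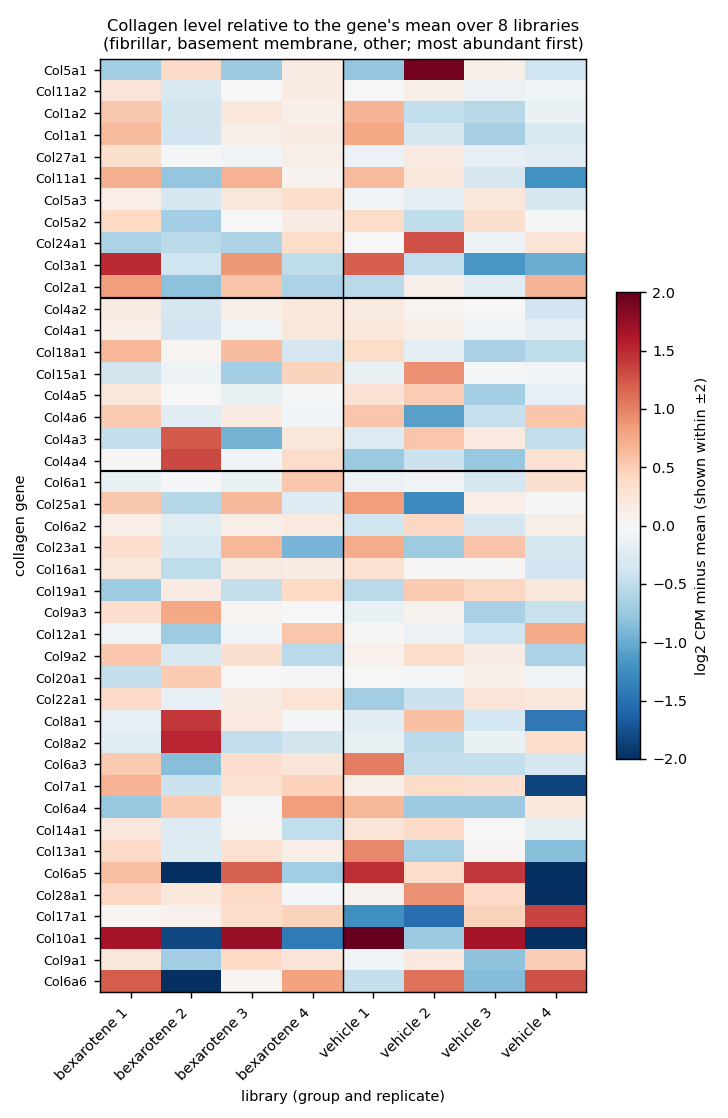
Log2 CPM of each collagen minus its mean over the 8 libraries, with bexarotene replicates 1 to 4 left and vehicle replicates 1 to 4 right; rows are grouped by class, most abundant first, and colours are limited to ±2. Col10a1 and Col6a5 are high in replicates 1 and 3 of both groups, Col5a1 and Col24a1 are high in vehicle replicate 2, and Col8a1 and Col8a2 are high in bexarotene replicate 2.

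Summed over each class, fibrillar collagens stood at 68.6 to 92.6 CPM in bexarotene libraries and 65.6 to 124 CPM in vehicle libraries. Basement membrane collagens stood at 77.3 to 108 CPM in bexarotene libraries and 77.7 to 108 CPM in vehicle libraries, and the others at 185 to 228 CPM and 182 to 231 CPM. The whole family summed to 330 to 419 CPM under bexarotene and 349 to 427 CPM under vehicle, so the ranges of the groups overlapped for every class. By mean level, 11 collagens stood at 10 CPM or more, 23 between 1 and 10 CPM and 9 below 1 CPM. Emid2 averaged 2.81 ± 0.226 CPM in bexarotene and 3.998 ± 1.74 CPM in vehicle libraries (SD, n = 4), a log2 fold change of -0.51 ± 0.29 (SE) with an adjusted p of 0.671 by edgeR.

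The machinery that makes collagen showed no called member either. Of 28 genes for chain modification, folding and trimming, 18 had a positive log2 fold change (median 0.03), and 0 passed the test in either direction. Leprel4, a partner of the enzymes that hydroxylate prolines and lysines of collagen, averaged 11.9 ± 0.795 CPM in bexarotene and 8.66 ± 1.29 CPM in vehicle libraries (SD, n = 4). Ppib, an isomerase that helps the chains fold, was at 65.6 ± 6.08 CPM and 55.9 ± 2.12 CPM (SD, n = 4). In both, every bexarotene library exceeded every vehicle library, as in 3.61% of all genes. Their log2 fold changes were 0.45 ± 0.13 and 0.23 ± 0.08 (SE), with adjusted p-values of 0.411 and 0.499 by edgeR. All 4 tested lysyl oxidases, which crosslink collagen, were positive or at 0.00 (median 0.32), among them Loxl1 at 0.60 ± 0.44 and Loxl3 at 0.19 ± 0.13, and 0 passed.

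No receptor, protease or matrix partner of collagen passed the test. Of 8 tested collagen receptors, 7 were positive (median 0.11) and 0 passed, with Mrc2, which takes up collagen into cells, at a log2 fold change of 0.33 ± 0.15 (SE) and Ddr2, a fibrillar collagen receptor, at 0.38 ± 0.20. Gp6, the platelet receptor, was at 0 in all libraries. Of 10 tested proteases and inhibitors, 6 were positive (median 0.13) and 0 passed, with Ctsk at 0.51 ± 0.25 and Mmp9 at 0.58 ± 0.32, both collagen-cleaving enzymes. Of 15 laminin, nidogen and perlecan genes, the partners of type IV collagen, 9 were positive (median 0.06) and 0 passed, with Nid2 at 0.62 ± 0.24 and the vascular laminin chain Lama4 at 0.51 ± 0.24. Of 13 partners of collagen fibrils, 8 were positive (median 0.10) and 0 passed, with the collagen-binding protein Sparc at 0.44 ± 0.26 and Postn at 0.50 ± 0.34.

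No vessel cell marker passed the test. Of 10 endothelial markers, 9 were positive (median 0.21) and 0 passed, with Kdr at a log2 fold change of 0.48 ± 0.24 (SE) and Cldn5 at 0.34 ± 0.20. Their sum was 195 to 260 CPM in bexarotene libraries and 151 to 230 CPM in vehicle libraries. Of 10 pericyte and smooth muscle markers, 9 were positive (median 0.45) and 0 passed, with Myl9 at 0.53 ± 0.20 and Kcnj8 at 0.51 ± 0.22, and a sum of 138 to 208 CPM and 120 to 146 CPM. Markers of bone and cartilage, the tissues best known for collagens II, IX, X and XI, went the other way. Of 10, 4 were too low to test, and 1 of the 6 tested was positive (median -0.18). Their sum was 15.7 to 20.8 CPM in bexarotene libraries and 15.3 to 24.9 CPM in vehicle libraries. It was led by Dmp1, Runx2 and Acan, with means of 7.36, 5.12 and 3.32 CPM in bexarotene libraries and 7.76, 5.37 and 4.02 CPM in vehicle libraries. Whether it reflects RNA of bone or cartilage was not tested.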

How the data were processed

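The deposited file holds raw read counts per RefSeq transcript, per the file headers, in 28644 rows for 22869 symbols. The submitters' processing notes name the genome build mm9 and edgeR; the aligner, the counter, its strand setting and the annotation version were not given in the sources read. Per the labels' protocols, libraries were made with a stranded TruSeq mRNA kit. Without the strand setting, reads of a gene and an antisense partner may be mixed. Columns were matched to samples by the labels' descriptions, and 0 columns were left unused.

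Counts were tested with edgeR's quasi-likelihood test (edgeR 4.0.16, R 4.3.3; TMM factors, default filter, robust, group only), with Benjamini-Hochberg adjustment over 21285 rows, which stand for 16069 genes. CPM are relative to the total over tested rows times the TMM factor. Alternatives used DESeq2 1.42.0 and limma 3.58.1, and the code was tested on simulated data. Transcript lengths came from GENCODE M21, matched by RefSeq accession for 97% of rows and 42 of the 43 collagens, 6 of which had more than 1 row; the length correction is a spline per library. The classes, gene lists and tests were chosen with earlier results of these data known. Fold changes are given for the 4 collagens of each class with the smallest p and the most abundant per kilobase; Col1a1, Col4a1, Col6a1, Col8a2 and other genes without that rank were chosen after their values were seen. Of each list, the 2 members with the smallest p and a mean of at least 1 CPM are named.

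Same-numbered libraries deviated together, with correlations of 0.43, 0.28, 0.14 and 0.16 for replicates 1 to 4, and some unlike-numbered pairs were as high (0.44 for bexarotene 3 with vehicle 1, 0.23 for bexarotene 4 with vehicle 2, 0.20 for bexarotene 2 with vehicle 4). All 4 same-numbered values exceeded 0.1, so a blocked fit by replicate number was run beside the unblocked one. The numbers come from the titles, and replicates 1 and 3 also lie apart from 2 and 4, so pairs and those sets cannot be told apart. Intervals are 95% and the limit for a count of 0 is 3 counts; both cover the spread or counting error seen here only.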

Additional observations from a re-analysis of the deposited data

Results flagged for a closer look

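Dixon's outlier rule was applied to 86 groups of 4 libraries (43 collagens in both treatments). In 10, a library's gap to the nearest other exceeded the 95% critical share of the group's range. Chance gives about 1 in 20 only for independent, normally distributed values. The collagens share libraries and were taken as CPM, so that rate need not apply to these flags. Under bexarotene these were Col8a1 (5.13 CPM) and Col8a2 (4.94 CPM), both high in replicate 2, Col16a1 (11.9 CPM), low in replicate 2, and Col6a1 (83.7 CPM) and Col24a1 (3.14 CPM), both high in replicate 4. Under vehicle they were Col5a1 (65.7 CPM) and Col15a1 (6.55 CPM), both high in replicate 2, and Col1a1 (13.9 CPM), Col3a1 (3.08 CPM) and Col6a3 (3.53 CPM), all high in replicate 1.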

How the results depend on the processing

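The count of collagens past the threshold was 0 in each direction under every normalization, filter, tool, block, length correction, row choice and left-out library tried, and the smallest adjusted p of a collagen over these fits was 0.248, in DESeq2. With the replicate block 0 collagens were called, 3 had an unadjusted p under 0.05 (Col9a3, Col18a1 and Col8a1) and no call changed. Without vehicle replicate 1, 6 had an unadjusted p under 0.05. The share of all genes at that level was not counted in either fit, so neither count is a result about collagens. With single libraries left out, the median log2 fold change ranged from 0.02 to 0.32 for fibrillar, from 0.00 to 0.14 for basement membrane and from 0.00 to 0.17 for other collagens. The basement membrane median was -0.04 under the stricter filter, which drops its scarce chains. Signs changed as follows, and the cause was not tested. Col4a1 was at 0.07 with the length correction, 0.05 with length correction and replicate block, and 0.11 without replicate 2 of both groups, a setting added after seeing the data, under which Col8a2 was at -0.39. Col8a2 was also at -0.21 within replicates 1 and 3. With single libraries left out, the range was -0.12 to 0.07 for Col4a1, -0.02 to 0.19 for Col4a2, -1.03 to 0.18 for Col5a1, -0.18 to 0.45 for Col25a1, -0.07 to 0.27 for Col6a1 and -0.27 to 0.69 for Col8a2. Over the fits tried, the median of all genes lay between -0.006 and 0.032. The stricter filter left 33 of the 43 collagens, and of the genes given a fold change Col3a1 and Col4a4 had no value there. For 9 collagens below 1 CPM, counts limit what could be seen.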
